A study of Mus musculus with 6 samples.

Results

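Complement is a cascade of plasma and tissue proteins that marks cells, debris and synapses for removal, and 9 of its genes were followed here in the midbrain of MitoPark mice. They were C1qa, C1qb and C1qc (the chains of the recognition molecule C1q), C4a, C4b and C3 (the components cleaved downstream of it), Serping1 (C1 inhibitor), and C3ar1 and C5ar1 (the receptors of the cleavage peptides C3a and C5a). The genes were chosen by name, all 9 were found among the 24054 genes in the table, and 8 passed the filter on low counts. RNA-seq was performed on the SN of 3 MitoParks and 3 littermate controls, untreated, on a C57BL/6 background, at 16 to 17 weeks of age. The labels give the tissue only as brain. MitoParks carry 1 copy of Cre at the dopamine transporter locus (Dat +/Cre) and loxP sites in both copies of Tfam (Tfam LoxP/LoxP), so that the mitochondrial transcription factor is lost in cells that express the transporter and not in glia. The controls are described in the methods as Tfam +/LoxP and Dat +/+, which means that they carry 1 loxP allele but no Cre. The study used both sexes, and the sex of each mouse is not given.

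When C1q binds antibody, dying cells or synapses, its associated proteases cleave C4 and C2, and the resulting enzyme cleaves C3. C3 fragments stay on the surface as tags that phagocytes recognise through integrin receptors, while the small peptides C3a and C5a signal through G protein-coupled receptors. In the brain, C1q comes mainly from microglia, whereas C4 is made largely by astrocytes and oligodendrocytes, and C3 is low in healthy tissue.

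Of the 8 genes tested, C4b was the 1 past the cutoffs for a DEG, a p under 0.05 before adjustment together with a change of more than 1.5-fold. C4b was 1.68-fold higher in MitoParks. The C1q chains were each 1.22-fold to 1.26-fold higher, under the fold cutoff. C3ar1 was 1.58-fold higher with a p above the cutoff, and C3, C4a, Serping1 and C5ar1 differed by less than the spread between mice. Across all 14568 genes tested, 55 passed the cutoffs as higher in MitoParks (0.378%) and 29 as lower (0.199%), against 1 and 0 of the 8 complement genes. No gene passed a Benjamini-Hochberg adjusted p of 0.05 in edgeR's quasi-likelihood test, in DESeq2 or in limma-voom, and the adjusted p was 0.999 for each complement gene tested. Before adjustment, 161 of the 14568 genes (1.11%) had a p under 0.05, a share smaller than the cutoff itself.

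The values of each mouse are given before each test. Levels are CPM, the share of a library's counts scaled to a common depth, after TMM normalization, and errors are SDs over 3 mice. The total expected counts per mouse ranged from 8140777 to 10528602. Tfam, the targeted gene, measured 40.3, 44.4 and 45.45 CPM in controls 1 to 3 and 32.7, 33.1 and 33.2 CPM in MitoParks 1 to 3, and the groups did not overlap. Its log2 fold change was -0.395 (SE 0.11, unadjusted p = 0.00565 and adjusted p = 0.999 by edgeR's quasi-likelihood test), short of the fold cutoff. Over all 14568 genes tested, 332 (2.28%) had every MitoPark below every control. The library of control 3 stood apart in its markers of dopaminergic neurons, whose 10 summed genes reached 1653 CPM there against 344.8 to 655.5 CPM in the other 5 mice, and it also held the most oligodendrocyte marker RNA. Control 3 stayed in, and values without it are given for several results that rest on it. In bulk tissue, fewer cells of a type and less RNA per cell cannot be told apart. The methods take controls from litters of MitoParks or of the parental strain, and the litter of each mouse is not given. Controls may therefore differ from MitoParks in litter as well as in genotype. The p-values measure only the spread between these mice.

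C4 is encoded by a near-identical gene pair in mice, C4b for the complement component itself and C4a for the related sex-limited protein, so reads can be assigned to the wrong copy. To show what the counting had to work with, the transcripts from GENCODE M21 were aligned. Of the 5217 coding bases of C4b, 5207 aligned to C4a, 201 of these differed, and identity was 96.14%. The reads were 150 bases long, and 432 of the 5230 windows of that length in C4b (8.26%) occurred without any mismatch in C4a as well. The stretch of coding bases 2675 to 2764, counted from the start codon of C4b, is printed because it holds 14 differences in 90 bases, which are in capitals, so that a read across it can be told to belong to either gene.
C4b: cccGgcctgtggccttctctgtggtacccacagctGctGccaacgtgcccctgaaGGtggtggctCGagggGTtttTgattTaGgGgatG
C4a: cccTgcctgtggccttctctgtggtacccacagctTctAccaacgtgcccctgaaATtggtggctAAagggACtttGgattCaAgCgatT

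**Figure D1:**
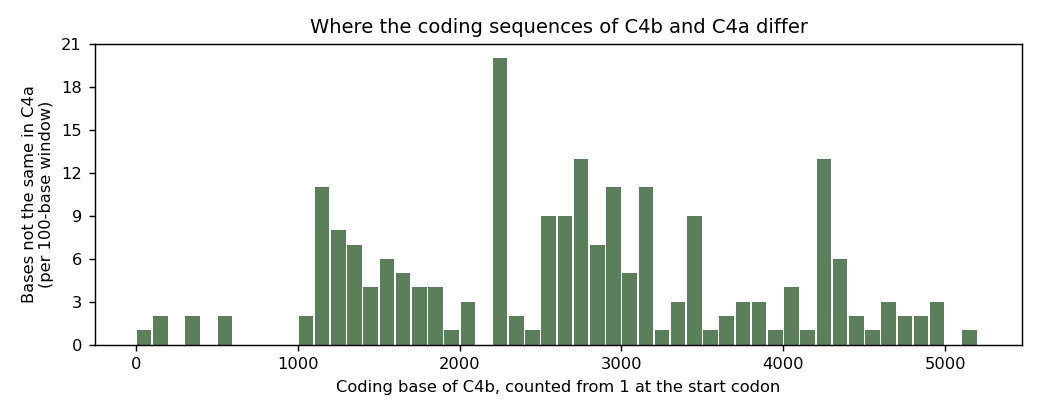
Bases of the C4b coding sequence that are not the same in C4a (y axis, bases per 100-base window) against position in the coding sequence of C4b (x axis, bases from the start codon). Differences are spread unevenly, with up to 20 in a window and none in 9 windows, most of them among the first 1000 bases.

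C4b measured 45.2, 31.5 and 40.1 CPM in controls 1 to 3 and 57.4, 48.8 and 90.1 CPM in MitoParks 1 to 3. Every MitoPark was above every control, and MitoPark 3 was far above the other two. The means were 38.9 ± 6.91 and 65.5 ± 21.8 CPM (SD, n = 3 mice each), a log2 fold change of 0.75 (SE 0.23, unadjusted p = 0.00875 and adjusted p = 0.999 by edgeR's quasi-likelihood test). The fold change of 1.68 had a 95% interval of 1.18 to 2.40, and the gene ranked 17 by p among those tested. An exact two-sided permutation test gave p = 0.1, the smallest that 3 against 3 mice allow. MitoPark 3 decided the call. Without it the log2 fold change was 0.45 (unadjusted p = 0.0321 by edgeR), under the fold cutoff, and without control 3 it was 0.77 (unadjusted p = 0.00963 by edgeR).

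C4a was a minor share of the pair. It held 1.67, 1.615 and 0.977 CPM in the controls and 1.46, 1.415 and 2.49 CPM in the MitoParks, from 9.68 to 21.78 expected counts per mouse. These groups overlapped, with MitoPark 3 the highest again. The log2 fold change was 0.33 (SE 0.39, unadjusted p = 0.412 by edgeR), and its 95% interval ran from 0.688-fold to 2.31-fold. Without MitoPark 3 the log2 fold change was 0.021 (unadjusted p = 0.961 by edgeR), and without control 3 it was 0.12 (unadjusted p = 0.782). C4a took between 2.31% and 4.91% of the expected counts of both genes in each mouse. When the counts of both were added into 1 row, the log2 fold change was 0.74 (SE 0.23, unadjusted p = 0.00902 by edgeR), close to that of C4b alone. The summed row was 0.44 without MitoPark 3 (unadjusted p = 0.0325 by edgeR), also under the fold cutoff.

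**Figure D2:**
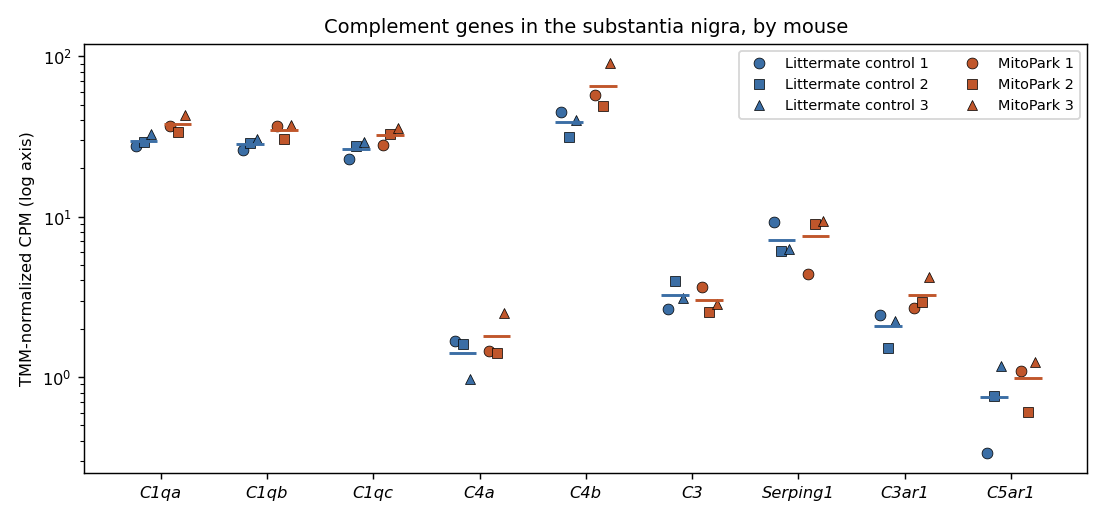
TMM-normalized CPM (y axis, log scale) of the 9 complement genes (x axis) in each of 3 littermate controls (blue) and 3 MitoParks (orange), with the symbol giving the mouse and the bar the group mean. For C1qa, C4b and C3ar1 every orange symbol lies above every blue one, and the C4b value of MitoPark 3, 90.1 CPM, is the highest in the plot.

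C1q is built from equal numbers of A, B and C chains, and the genes C1qb, C1qc and C1qa follow each other directly on chromosome 4. RefSeq's promoter table for GRCm38.p6 held 5 of the 9 genes (C1qb, C1qc, C3, C3ar1 and C5ar1), and the 250 bases before the start of C1qb and C1qc are printed because these neighbours encode chains of 1 protein. Capitals mark GAGGAA on either strand, the core bound by the myeloid factor PU.1.
C1qb, chr4:136886201-136886450, minus strand: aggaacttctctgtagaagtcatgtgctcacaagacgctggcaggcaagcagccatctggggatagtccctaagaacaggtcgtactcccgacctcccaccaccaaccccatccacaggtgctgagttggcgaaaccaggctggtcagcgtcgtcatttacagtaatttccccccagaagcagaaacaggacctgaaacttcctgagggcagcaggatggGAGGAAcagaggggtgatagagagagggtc
C1qc, chr4:136892915-136893164, minus strand: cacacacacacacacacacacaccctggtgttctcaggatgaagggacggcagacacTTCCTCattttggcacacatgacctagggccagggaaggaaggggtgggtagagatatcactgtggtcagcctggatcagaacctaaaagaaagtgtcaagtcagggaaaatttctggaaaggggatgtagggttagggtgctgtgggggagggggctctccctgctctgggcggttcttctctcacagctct
The match lies 30 bases before the start in C1qb and 193 bases before it in C1qc. These letters occur in 23.3% of 32817 promoters of the same length, so the match is only a description, and the promoters of C3, C3ar1 and C5ar1 held none. The core of the interferon-stimulated response element, searched as TTTC, 2 free bases and TTTC again, occurs in 2.97% of promoters, and TTCNNNGAA, the form bound by STAT factors, in 7.01%. Both strands were searched, and neither was found in these windows of the 5 genes.

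C1qa, the A chain, measured 27.5, 29.3 and 32.6 CPM in controls 1 to 3 and 36.8, 33.6 and 42.7 CPM in MitoParks 1 to 3. Every MitoPark was above every control, although MitoPark 2 exceeded control 3 only narrowly. The means of 29.8 ± 2.61 and 37.7 ± 4.65 CPM gave a log2 fold change of 0.34 (SE 0.13, unadjusted p = 0.031 and adjusted p = 0.999 by edgeR), or 1.26-fold with a 95% interval of 1.03 to 1.56. C1qb, the B chain, measured 26.1, 28.9 and 30.7 CPM in the controls and 36.6, 30.4 and 37.5 CPM in the MitoParks. MitoPark 2 fell just under control 3, so the groups overlapped. The log2 fold change of C1qb was 0.29 (SE 0.13, unadjusted p = 0.0543 by edgeR).

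C1qc, the C chain, measured 22.7, 27.45 and 29.0 CPM in the controls and 28.0, 32.7 and 35.9 CPM in the MitoParks. Here MitoPark 1 was the value inside the control range. The log2 fold change was 0.29 (SE 0.14, unadjusted p = 0.0749 by edgeR). Control 3 was the highest control for all 3 chains. Without it, the log2 fold changes were 0.41 for C1qa (unadjusted p = 0.0237 by edgeR), 0.34 for C1qb (unadjusted p = 0.0504) and 0.36 for C1qc (unadjusted p = 0.0508). All 3 chains were then higher in every MitoPark than in either remaining control. Separation is easier to reach with 3 against 2 mice, and the share of all genes separated in that fit was not computed. Without MitoPark 3 the log2 fold changes were 0.24 for C1qa (unadjusted p = 0.119 by edgeR), 0.23 for C1qb (unadjusted p = 0.155) and 0.20 for C1qc (unadjusted p = 0.235). C1qa also had a p above 0.05 without control 1 (unadjusted p = 0.0953 by edgeR) or control 2 (unadjusted p = 0.0794).

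The chains kept their proportions. Per kilobase of the longest transcript, C1qa took 36.3% to 39.0% of the C1q signal in the 6 mice, C1qb 32.0% to 36.4% and C1qc 25.3% to 31.1%, with the groups overlapping for each. The sum of the 3 chains was 76.3, 85.6 and 92.4 CPM in the controls and 101.4, 96.65 and 116.2 CPM in the MitoParks. It was 1.24-fold higher in MitoParks without overlap, at the smallest exact permutation p of 0.1.

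C3, the component on which the activation pathways converge, was sparse, with 24, 42 and 32 counts in the controls and 30, 25 and 25 in the MitoParks. Its level was 3.26 ± 0.669 CPM in controls and 3.01 ± 0.584 CPM in MitoParks (SD, n = 3 each), and the groups overlapped. C3 was the only gene of the 8 tested with a lower mean in MitoParks, by a log2 fold change of -0.13 (SE 0.28, unadjusted p = 0.66 by edgeR). The 95% interval, 0.590-fold to 1.42-fold, holds a fall of more than 1.5-fold but not a rise of that size. Serping1, whose product blocks the C1 proteases, measured 9.24, 6.08 and 6.26 CPM in the controls and 4.39, 8.998 and 9.41 CPM in the MitoParks. The lowest and the highest value were both from MitoParks. Its log2 fold change of 0.09 (SE 0.30, unadjusted p = 0.776 by edgeR) had an interval of 0.662-fold to 1.71-fold, and the sign changed when control 2, MitoPark 2 or MitoPark 3 was left out.

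C3ar1, the C3a receptor, which microglia and macrophages carry, measured 2.45, 1.52 and 2.25 CPM in the controls and 2.68, 2.93 and 4.195 CPM in the MitoParks, from 16 to 37.04 expected counts. The groups did not overlap, but control 1 and MitoPark 1 had 22 counts each and were separated by their depth alone. The means of 2.07 ± 0.489 and 3.27 ± 0.811 CPM gave a log2 fold change of 0.66 (SE 0.32, unadjusted p = 0.0651 by edgeR) with an interval of 0.966-fold to 2.59-fold. Leaving out 1 mouse at a time moved the log2 fold change of C3ar1 between 0.443 and 0.799. It was 0.443 without MitoPark 3 (unadjusted p = 0.227 by edgeR) and 0.477 without control 2 (unadjusted p = 0.198), both under the fold cutoff. Without control 3 it was 0.729 (unadjusted p = 0.0832 by edgeR). C5ar1, the C5a receptor, had 3, 8 and 12 counts in the controls and 9, 6 and 11 in the MitoParks and did not pass the filter. With no filter its log2 fold change was 0.34 (SE 0.55, unadjusted p = 0.548 by edgeR), and a difference was not detectable at this depth.

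For C1qa, C4b and C3ar1, 3 of the 8 genes tested, every MitoPark was above every control. Over all genes tested, 354 (2.43%) were separated in this way and 332 (2.28%) in the opposite one. The median log2 fold change was 0.31 over the 8 genes and -0.0047 over all genes tested. The 8 genes are not independent of each other, since the C1q chains form 1 protein and C4a and C4b can exchange reads.

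**Figure D3:**
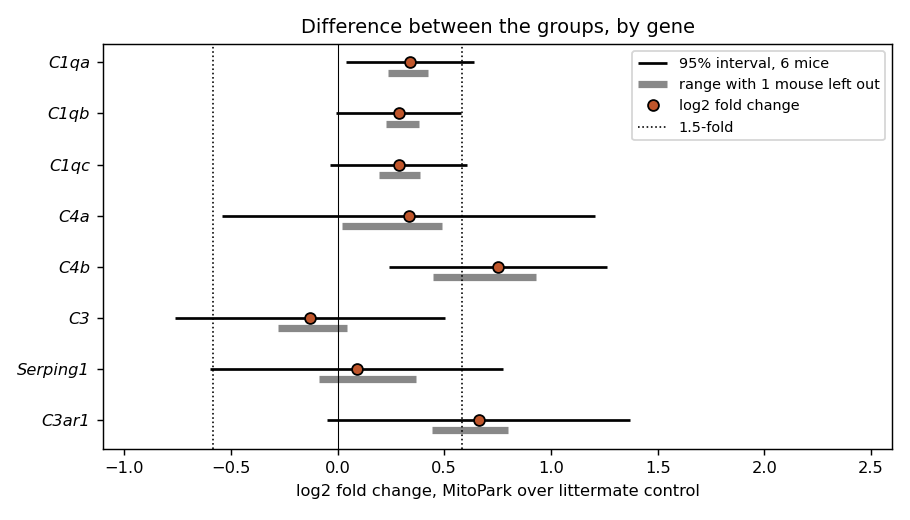
log2 fold change of MitoPark over littermate control (x axis) for the 8 complement genes tested (y axis), with the 95% interval over 6 mice (thin line), the range over 6 fits that each leave out 1 mouse (thick grey line) and 1.5-fold in either direction (dotted). Only the intervals of C1qa and C4b stay above 0, and the grey range of C4b, 0.45 to 0.93, crosses the dotted line.

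Levels of different genes were compared per kilobase of transcript, as the mean over all 6 mice. The order was C1qa (32.5 ± 5.28 CPM per kilobase), C1qb (29.1 ± 4.11), C1qc (24.4 ± 3.79), C4b (9.71 ± 3.81), Serping1 (4.18 ± 1.19), C3ar1 (0.621 ± 0.206), C3 (0.610 ± 0.113), C5ar1 (0.342 ± 0.142) and C4a (0.299 ± 0.0929). Each gene was above the next in 6 of 6 mice, except C3ar1 against C3 and C5ar1 against C4a, where it was so in 3 of 6. The ranges of C1qa and C1qb, and of C1qb and C1qc, overlapped between mice although the order held within each. The recognition chains were therefore the most abundant of the 9 transcripts and C3 and its receptor among the least.

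Across the 6 mice the level of C4b varied most nearly with that of C3ar1 (Pearson r = 0.955 of log2 CPM), and C1qa varied with C1qb (r = 0.956), C1qc (r = 0.839) and C4b (r = 0.862). C1qb and C1qc were less alike (r = 0.72), with MitoPark 1 above MitoPark 2 in C1qb and below it in C1qc. C3 and Serping1 ran opposite to each other (r = -0.835). These values describe 6 points that hold the group difference itself and the depth of each library. Of the 14560 other genes tested, those most like C4b were Zfp457 (r = 0.997), Syne2 (0.992), Dennd1a (0.989), Upf3b (0.985) and Vmn2r-ps129 (0.984). For C3 they were Brpf1 (0.994), Tmem50a (0.993), Stmn3 (0.99), Eif5a (0.987) and Slc25a11 (0.985). For the mean of the C1q chains they were Zfp408 (0.991), Rrp15 (0.989), Gatc (0.976), 6330415B21Rik (0.976) and Tbce (0.975). An r above 0.9 was reached by 154 genes for C4b, 130 for C3 and 101 for C1q, which is 1.06%, 0.893% and 0.694% of the genes compared.

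The rest of the pathway was read from 48 other complement genes, of which 24 passed the filter. Of these 13 were higher and 11 lower in MitoParks, none passed the DEG cutoffs, 1 had an unadjusted p below 0.05 by edgeR, and the median log2 fold change was 0.017. In the classical and lectin pathways, 3 of 13 genes were tested. The most abundant were Masp1, a protease of the lectin pathway, at 6.95 ± 1.12 CPM in controls and 6.55 ± 1.05 in MitoParks, and C2, the partner of C4 in the C3 convertase, at 3.05 ± 1.41 and 3.47 ± 0.443. Neither differed beyond the spread (log2 fold changes of -0.08 and 0.18, unadjusted p = 0.708 and 0.633 by edgeR).

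In the alternative pathway, Cfp (properdin, which stabilises the C3 convertase) was at 7.14 ± 1.77 CPM in controls and 6.76 ± 1.42 in MitoParks. Cfb, the factor B protease, was at 1.56 ± 0.886 and 1.25 ± 0.526 CPM. Of 7 genes of the terminal, pore-forming pathway, C8g alone passed the filter, at 1.18 ± 0.0841 and 1.201 ± 0.348 CPM, and Hc, which encodes C5, had 1 to 8 counts per mouse. The transcripts of the lytic end of the cascade were thus at or near the limit of detection in both groups.

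Among the inhibitors 12 of 16 were tested, 6 of them higher and 6 lower. Clu (clusterin, an inhibitor of the terminal complex) was the most abundant at 723.5 ± 26.9 CPM in controls and 739.5 ± 48.2 in MitoParks. Susd4, a membrane regulator, was at 74.05 ± 10.7 and 72.5 ± 9.24 CPM. Their log2 fold changes were 0.03 and -0.03 (unadjusted p = 0.784 and 0.835 by edgeR). Of the 9 other receptors and binding proteins, 6 were tested. Lrp1, a scavenger receptor that binds C1q and many other ligands, was at 542.6 ± 80.0 and 558.8 ± 71.9 CPM, and C1qbp, a mostly mitochondrial protein that binds C1q, at 53.85 ± 5.26 and 54.3 ± 3.24 CPM.

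The 1 gene outside the 9 with an unadjusted p below 0.05 was Itgb2, named after its values were seen. It encodes the β chain of complement receptor 3, which binds the C3 tag iC3b. It measured 4.23, 3.99 and 5.47 CPM in the controls and 5.49, 6.67 and 8.39 CPM in the MitoParks, without overlap although control 3 and MitoPark 1 were nearly equal. Its log2 fold change of 0.58 (SE 0.24, unadjusted p = 0.0376 and adjusted p = 0.999 by edgeR) was a fold of 1.499, just under the cutoff. Over all genes tested, 1.11% had an unadjusted p below 0.05. For Itgb2 the unadjusted p by edgeR was 0.0986 without control 1, 0.114 without control 2, 0.0652 without MitoPark 2 and 0.138 without MitoPark 3. It was 0.0222 without control 3 and 0.0201 without MitoPark 1. Itgam, the α chain of the same receptor, was at 19.9 ± 3.99 and 22.7 ± 2.23 CPM, a log2 fold change of 0.19 (unadjusted p = 0.281 by edgeR).

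Markers of the cells that make these proteins were set beside them. All 16 microglia markers were tested, 14 of them higher and 2 lower in MitoParks. Of these, 1 (Fcrls, named after its values were seen) passed the cutoffs as lower, with a log2 fold change of -1.18, beside 0.199% of all genes tested. Fcrls measured 2.005, 10.9 and 7.43 CPM in the controls and 2.32, 2.83 and 3.855 CPM in the MitoParks. The groups overlapped (exact permutation p = 0.4), and no marker was called lower without control 2, control 3 or any 1 MitoPark. Of the 16, 5 had every MitoPark above every control (Aif1, Siglech, Ctss, Cd68 and Laptm5, named after their values were seen), beside 2.43% of all genes tested. Cd68 and Laptm5, lysosomal proteins of phagocytes, had log2 fold changes of 0.58 and 0.435 (unadjusted p = 0.0367 and 0.0234 by edgeR), under the fold cutoff of 0.585 on the log2 scale. Without control 3, 15 of 16 were higher, 9 without overlap and 3 past the cutoffs. In that fit 142 of all genes tested passed the cutoffs as higher, against 55 with every mouse kept. Groups separate more easily with 1 control fewer, and the share of all genes separated in that fit was not computed. The summed level of the 16 markers was 371.3, 442.4 and 514.3 CPM in the controls and 482.5, 476.5 and 528.1 CPM in the MitoParks. The groups overlapped through control 3, and no marker was at 0 in every mouse. Per 100 CPM of microglia markers, the C1q chains measured 20.55, 19.3 and 18.0 in the controls and 21.0, 20.3 and 22.0 in the MitoParks. The difference of 19.3 ± 1.30 against 21.1 ± 0.863 was smaller than that of the chains themselves, and the groups overlapped (exact permutation p = 0.2). C3ar1 on the same scale was 0.480 ± 0.163 against 0.655 ± 0.124 (exact permutation p = 0.3).

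Border macrophages and blood monocytes also make complement, and 4 of their 9 markers were tested, all 4 higher in MitoParks. Mrc1 and F13a1, named after their values were seen, passed the cutoffs (log2 fold changes of 0.85 and 0.79, unadjusted p = 0.00817 and 0.0323, adjusted p = 0.999 by edgeR). Over all genes tested, 0.378% passed as higher. Counts were low, at 18 to 46 per mouse for Mrc1 and 14 to 36 for F13a1. Only 1 marker of the list was called without control 1, control 2, MitoPark 2 or MitoPark 3. Without MitoPark 2, 3 markers were higher and 1 lower. The summed level of the 9 markers was low, at 7.68 to 9.59 CPM in controls and 10.7 to 14.4 CPM in MitoParks, without overlap. Their part in the C1q and C3ar1 differences was not tested.

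For C4b, the 10 astrocyte markers were nearly level, at 4311 to 4888 CPM summed in controls and 4524 to 4997 in MitoParks, with 8 higher, 2 lower and 0 past the cutoffs. Of the 10 reactive astrocyte markers 6 were tested, 4 higher and 2 lower, and their sum was 279.6 to 444.8 CPM in controls and 361.3 to 669.7 CPM in MitoParks. Gfap, the filament protein of reactive astrocytes, supplied most of that sum. Gfap measured 192.6, 171.0 and 352.3 CPM in the controls and 255.0, 355.8 and 549.8 CPM in the MitoParks (log2 fold change 0.70, SE 0.32, unadjusted p = 0.0548 by edgeR). MitoPark 3 was highest for Gfap as it was for C4b. The other 9 markers of the list together were level, at 110.3 ± 18.6 CPM in controls and 110.8 ± 7.93 CPM in MitoParks, with 3 higher and 2 lower of the 5 tested. Gfap is thus singled out after its values were seen and does not stand for the list. Without control 3, 1 astrocyte marker and 1 reactive astrocyte marker passed the cutoffs as higher, beside 142 of all genes tested. In that fit 8 of 10 astrocyte markers were higher, and 3 of 6 reactive astrocyte markers, Gfap among them.

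Per 100 CPM of astrocyte markers, C4b was 0.860 ± 0.172 in controls and 1.40 ± 0.507 in MitoParks (exact permutation p = 0.2), and per 100 CPM of reactive astrocyte markers 11.4 ± 2.52 and 13.3 ± 2.66 (exact permutation p = 0.5). Of the 10 oligodendrocyte markers, 7 were higher, 3 lower and 0 past the cutoffs. Their direction rested on single mice. All 10 were higher without control 3 or without MitoPark 1, and all 10 lower without control 1 or without MitoPark 3. Without control 3, 2 were called higher, beside 142 of all genes tested. Their sum ranged from 7317 to 19310 CPM in controls and from 9961 to 16280 CPM in MitoParks. Per 100 CPM of oligodendrocyte markers, C4b was 0.378 ± 0.214 in controls and 0.502 ± 0.110 in MitoParks (exact permutation p = 0.4). Per 100 CPM of Gfap, a gene named after its values were seen, C4b was nearly level, at 17.8 ± 6.08 in controls and 17.5 ± 4.51 in MitoParks. The groups overlapped on each of these scales. Ratios of this kind carry the errors of both terms, and the part of any of these cells in the C4b difference was not tested.

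**Figure D4:**
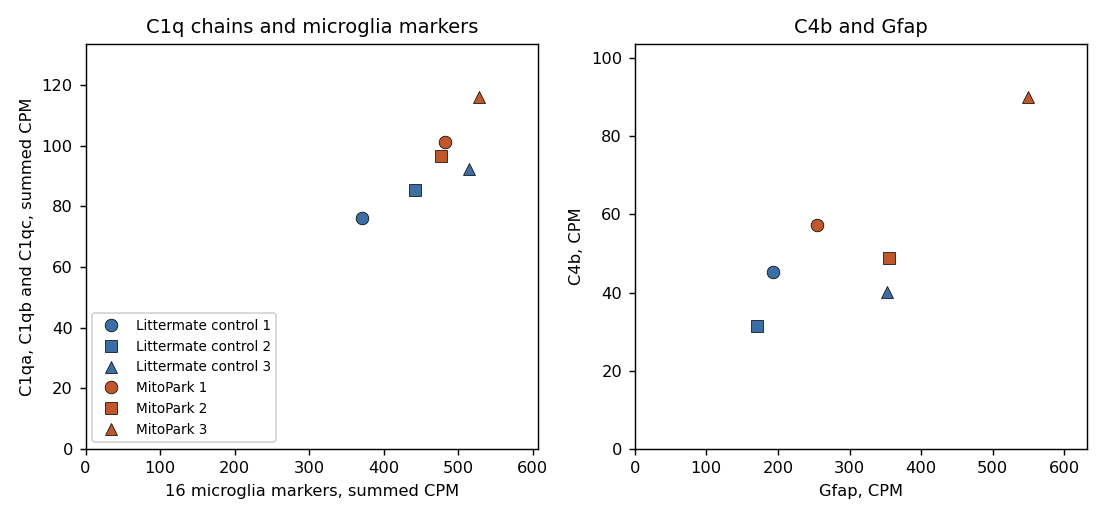
Left, summed CPM of C1qa, C1qb and C1qc (y axis) against summed CPM of 16 microglia markers (x axis). Right, CPM of C4b (y axis) against CPM of Gfap (x axis), a gene chosen after its values were seen. Each point is 1 mouse, blue for littermate controls and orange for MitoParks. Control 3 lies among the MitoParks on both x axes but below them on both y axes, and MitoPark 3 is highest on every axis.

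Dopaminergic neurons are the cells in which Tfam is deleted. With all 6 mice, 10 of their 10 markers had lower means in MitoParks, a count that rested on control 3. Without it 9 markers passed the filter, of which 5 were lower and 4 (Th, Aldh1a1, En1 and Foxa2, named after their values were seen) were higher, with a median log2 fold change of -0.069. Slc6a3, the dopamine transporter at whose locus Cre is inserted, went past both cutoffs. It measured 72.6, 65.25 and 383.4 CPM in the controls and 13.3, 51.1 and 40.9 CPM in the MitoParks. Its log2 fold change was -2.30 (unadjusted p = 0.00895 by edgeR), and without control 3 it was -0.97 (unadjusted p = 0.023 by edgeR), still past the cutoffs. The groups differ in genotype at this locus (Dat +/Cre against Dat +/+), and the part of the Cre insertion in the level of Slc6a3 was not tested. Th, the rate-limiting enzyme of dopamine synthesis, measured 55.7, 47.4 and 159.4 CPM in the controls and 39.0, 57.0 and 65.5 CPM in the MitoParks, and the groups overlapped.

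With all 6 mice, markers of other cells the dissection could hold did not pass the cutoffs in either direction. Some did with 1 mouse left out. Without control 3, 3 choroid plexus and ependyma markers were called lower, beside 77 of all genes tested. Without control 1, 2 fibroblast markers were called higher, beside 81 of all genes. Without control 2, 1 red cell and neutrophil marker was called higher, beside 43. Without MitoPark 2, 1 neuron marker was called lower, beside 65. The summed levels overlapped for oligodendrocyte precursors (6 of 6 markers tested), neurons (10 of 10), endothelial cells and pericytes (12 of 12), meningeal and vascular fibroblasts (10 of 10), choroid plexus and ependyma (7 of 9), and red cells and neutrophils (5 of 10). Choroid plexus and ependyma markers reached 215.3 CPM in control 2 against 35.2 to 72.4 CPM in the other mice, and control 2 also had the highest level of C3 (3.99 CPM). Without control 2 the log2 fold change of C3 was 0.0441. MitoPark 1, with the next highest level of C3 (3.66 CPM), had 47.9 CPM of choroid plexus and ependyma markers. The part of these cells in the level of C3 was not tested.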

How the data were processed

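RNA was taken from the SN of 3 littermate controls and 3 MitoParks. Libraries were poly-A selected with dUTP in the second strand and read single-end at 150 bases. The authors mapped reads to UCSC transcripts with Bowtie2 2.1.0 and used RSEM 1.2.15 to estimate how many reads each gene received. The deposited expected counts are not scaled for depth or length. The processing notes name hg38 as a build, a human one, and coordinates given here come from RefSeq instead. A further methods paragraph describes another alignment and RPKM values, which are not those of the deposited table. RSEM divides reads that fit several genes, and 11.91% to 14.11% of the values in a mouse were not whole.

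Groups came from the labels. The control columns of the table carry the sample titles, while the other 3 columns are named as treated and were assigned to the MitoPark samples, titled PD, as the only other group and by their number. Expected counts were rounded, genes whose mean CPM exceeded 1 in either group were retained, TMM factors were applied, and the 2 groups were compared by the quasi-likelihood test of edgeR 4.0.16 in R 4.3.3. DEGs had a p under 0.05 before adjustment and changed by more than 1.5-fold. Benjamini-Hochberg adjustment ran over every gene in the fit. Standard errors were the log2 fold change over the square root of F. Exact permutation tests used log2(CPM + 0.1). The procedure was tested on simulated data. Counts of replicate pairs differed by more than sampling noise (lowest chi-square per degree of freedom 10.15). Reads carry no molecular identifiers. Alternatives were RLE or total-count scaling, 2 other filters, DESeq2 1.42.0, limma-voom (limma 3.58.1), robust dispersions, unrounded counts, the replicate block and each mouse left out, which was added for the marker lists and Slc6a3 after the data were seen, as was the reactive astrocyte sum without Gfap.

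The 9 genes, the other lists and the tests were chosen with earlier results of these data known, and C4b is a gene the study itself names. Named were the 9 genes, the other complement genes past the cutoffs and the 2 most abundant per role, Th, Slc6a3, Tfam, and the 5 genes most like C4b, C3 and C1q by Pearson r. Of marker lists only sums and counts were to be given, and exceptions are marked. Gfap was named after the values were seen. Promoters cover the 250 bases before the start.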

Additional observations from a re-analysis of the deposited data

How the results depend on the processing

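C4b kept its call under 9 alternative settings of scaling, filter, test, rounding and blocking, with log2 fold changes of 0.72 to 0.77, unadjusted p from 0.00061 to 0.0127 and adjusted p from 0.653 to 1, and it lost the call only without MitoPark 3. Leaving out 1 mouse at a time moved C4b between 0.45 and 0.93, and the sum of C4a and C4b between 0.44 and 0.92. The count of complement genes called was 0 to 1, and that of genes without overlap 3 to 5, all with MitoParks above, with C1qb and C1qc joining without control 3. With 1 mouse fewer, groups separate more easily, and the all-gene shares separated in those fits were not computed. The same fits moved C3 between -0.28 and 0.0441, the latter without control 2, and Serping1 between -0.088 and 0.37. Serping1 turned to -0.02 without control 2, -0.04 without MitoPark 2 and -0.088 without MitoPark 3. Of the alternative values for single complement genes and Tfam, 141 kept direction and call, 4 turned, 4 gained the call (all Itgb2, at total counts, edgeR's filterByExpr, without control 3 and without MitoPark 1) and 1 lost it.

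Over all genes, the number of DEGs was 62 to 219 with 1 mouse left out, 26 to 152 of them higher and 27 to 77 lower. Without a filter on low counts there were 176, 107 higher and 69 lower. With the replicate block 83 were higher and 1 gene passed an adjusted p of 0.05, and C4b with the block stood at unadjusted p = 0.00061, adjusted p = 0.653 by edgeR. The block moved C1qb to unadjusted p = 0.0487 and C1qc to unadjusted p = 0.0325 by edgeR, both under the fold cutoff. Deviations of mice with the same number correlated at 0.307, -0.0738 and 0.244, and 2 of 3 controls and 2 of 3 MitoParks correlated best with their own number. The labels do not say what mice of the same number share, and the cause of these shifts was not tested. Depth limited C3, C4a, C3ar1 and C5ar1, with 42 counts or fewer per mouse.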

Other observations

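Of the 48 other complement genes, 22 had at least 1 count but too few for the filter, and 4 of these had a higher CPM in every MitoPark than in every control. Of all 4717 genes in that position, 167 (3.54%) did so. The 4 are named after their values were seen, and no test was made of them. Itgax, the α chain of complement receptor 4, a gene of activated microglia and dendritic cells, had 1.49, 3.33 and 2.01 expected counts in controls 1 to 3 and 4, 5 and 10 in MitoParks 1 to 3. Cr2, a receptor of C3 fragments best known from B cells, had 4, 3 and 6 counts in the controls and 7, 10 and 9 in the MitoParks. C6, a terminal component, had 2 counts in each control and 3, 4 and 6 in the MitoParks. Cfi, the protease that cuts C3b, had 0, 0 and 1 count in the controls and 1 in each MitoPark, so that it is separated from control 3 by library depth alone. Counts this low carry a wide counting error.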
